A study of Drosophila melanogaster with 3 samples.

Results

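Distal intergenic binding sites of D19A were taken from the optimal list of ChIP-seq peaks that passed the irreproducible discovery rate (IDR) procedure, which keeps peaks whose ranks recur between replicates. A peak was a member when its summit lay in no annotated gene and over 1000 bp from the nearest transcription start site (TSS) of any gene, with transposable elements left out of the gene models. The rule uses positions only and no measured strength, and it held for 1261 peaks, 16.2% of the list, and not for the other 6508. Lists of the same length made from the strongest peaks of the single replicates gave 1287, 1190 and 1229 such peaks in replicates 1, 2 and 3, or 15.9% ± 0.628 (SD, n = 3). Another 1542 intergenic IDR peaks lay at 1 kb or less from a TSS. The closest member stood 1008 bp from a TSS and the nearest intergenic peak on the other side of the limit 997 bp, with 39 members within 100 bp outside the limit and 32 intergenic peaks within 100 bp inside it. All 1261 members also met the rule with RefSeq gene models.

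The material was whole Drosophila melanogaster embryos of pooled sex, collected 0 to 20 h into development, from 1 transgenic line with GFP fused to the C-terminus of D19A, a zinc finger protein. The 3 libraries are biological replicates of this 1 group, all carry the tagged protein, and all share 1 control file, so there was no untagged or untreated group to compare with. Chromatin was precipitated with an antibody to GFP per the sample descriptions, although the antibody field names D19A, and fragments of 200 to 800 bp were selected. Whole embryos mix all cell types, so a peak can come from a few cells or from many. Replicate lists were each capped by the authors at 30000 peaks and no read counts were used here, so library depth is unknown.

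Sequence between genes is where many enhancers of flies lie, and developmental regulators are known for long intergenic neighbourhoods that hold several enhancers each. An enhancer need not act on the nearest gene, so a flanking gene names a place and not a target. A gene desert is a long stretch without annotated genes. In flies many of the longest ones lie near the centromeres, in repeat-rich heterochromatin.

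The summit sequences of 6 of the strongest members show the feature most of them share, runs of A and T. Each line gives the summit base and 50 bases on either side, plus strand, from the RefSeq assembly with the arms and lengths of dm6. Capitals mark every 8-mer that was more frequent at member summits than in their flanks, on either strand. There were 208 such 8-mers of 31528 tested (0.660%, exact paired test with Benjamini-Hochberg adjustment), against 4.40% for the same test over the more numerous other IDR peaks. The lines are, in order, chr3L:18281401-18281501, chr2L:12006733-12006833, chr3R:28572842-28572942, chr3R:26012941-26013041, chr3R:4846926-4847026 and chrX:20644111-20644211.
CheA75a-CG5103: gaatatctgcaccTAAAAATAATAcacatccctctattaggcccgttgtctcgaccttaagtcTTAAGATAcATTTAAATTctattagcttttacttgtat
Hacd1-Rh5: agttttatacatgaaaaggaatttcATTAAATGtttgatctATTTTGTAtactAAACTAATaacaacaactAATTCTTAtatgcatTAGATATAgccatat
mIF2-fkh: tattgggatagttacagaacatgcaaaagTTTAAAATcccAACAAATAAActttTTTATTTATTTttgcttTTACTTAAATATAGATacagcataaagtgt
E(spl)malpha-BFM-Kaz-m1: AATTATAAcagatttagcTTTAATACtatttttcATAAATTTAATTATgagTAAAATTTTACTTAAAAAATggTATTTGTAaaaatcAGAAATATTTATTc
CG14659-opa: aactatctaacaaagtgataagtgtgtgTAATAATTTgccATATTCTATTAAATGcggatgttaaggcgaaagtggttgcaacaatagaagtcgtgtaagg
RunxA-asRNA:CR45466: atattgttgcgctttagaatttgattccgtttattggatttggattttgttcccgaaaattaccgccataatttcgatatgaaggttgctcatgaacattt
The window between E(spl)malpha-BFM and Kaz-m1 is 85.1% A or T and has 71 bases in capitals, while the window between RunxA and asRNA:CR45466, at 66.3% A or T, has 0. The other 4 windows hold 24 to 45 bases in capitals.

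The strongest member lay on 3L between CheA75a, a gene of a family linked to chemosensation, and CG5103 (chr3L:18280949-18281834). Its summit was 12811 bp from the nearest TSS, in a gap of 39.3 kb that held 8 members in all. The authors' signal value, which was used only to rank peaks within a list, was 7050, 8215 and 6749 in replicates 1, 2 and 3, at ranks 11, 11 and 13, and the peak ranked 12 in the IDR list. It therefore stood among the strongest of all binding sites in every replicate, although no TSS lay within 12 kb.

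The next members in strength flanked genes of varied roles. The peak ranked 32 lay 1370 bp upstream of Rh5, which encodes a rhodopsin of the larval and adult eye, with signal values of 3480, 4659 and 3633 in replicates 1, 2 and 3 (chr2L:12006309-12007307). The peak ranked 52 lay 12220 bp from the nearest TSS of fkh, the forkhead transcription factor of gut and salivary gland, with signal values of 2870, 3109 and 3202 (chr3R:28572470-28573284). The peak ranked 115 lay within the Enhancer of split complex, 1423 bp from E(spl)malpha-BFM, a Bearded-family gene of Notch signalling, and had 1665, 2014 and 1708 (chr3R:26012678-26013307). In each of these 3 peaks the highest replicate was less than 1.5 times the lowest.

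The peak ranked 126 lay 5837 bp upstream of opa, a pair-rule gene that encodes a zinc finger protein, at replicate ranks 118, 165 and 107 (chr3R:4846645-4847265). The peak ranked 160 lay 9853 bp from 18w, which encodes a receptor of the Toll family, at replicate ranks 149, 206 and 133. The peak ranked 162 lay 9362 bp from CG13323, in the 36.8 kb gap that begins at Su(z)2, a relative of the Polycomb group gene Psc, at replicate ranks 209, 108 and 280. Of the 15 strongest members, all 15 were overlapped by a top 500 peak of every replicate and 12 by a top 200 peak of every replicate.

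**Figure D1:**
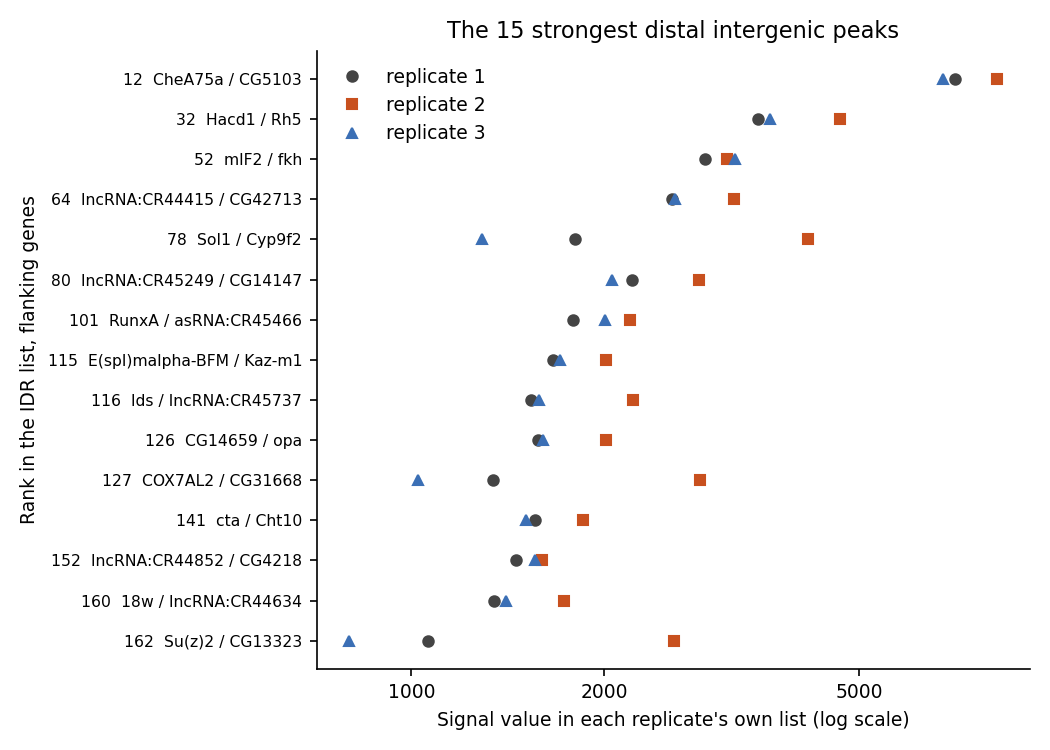
Signal values (x, log scale, as given by the authors in each replicate's own list) of the 15 strongest distal intergenic peaks, listed by their rank in the IDR list and their flanking genes (y); each point is 1 replicate. Replicate 2 lies well above the others for the peaks ranked 78, 127 and 162, and the replicates lie close together for those ranked 52 and 152.

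For 3 of the 15 the signal value of replicate 2 was over 2 times that of each other replicate. The peak ranked 78, in a gap of 0.437 kb between Sol1 and the cytochrome P450 gene Cyp9f2, had signal values of 1800, 4161 and 1290 in replicates 1, 2 and 3. The peak ranked 127, between COX7AL2 and CG31668, had 1341, 2819 and 1024, and the peak ranked 162 had 1063, 2570 and 799.6. Signal values were not scaled between lists, so the ranks within each list are the safer comparison. By rank the first of the 3 peaks stood at 97, 42 and 149, the second at 151, 94 and 197 and the third at 209, 108 and 280. Replicate 2 thus gave each its best rank. Most of the 15 went the other way, with their worst rank in replicate 2. The peak ranked 152, between lncRNA:CR44852 and CG4218, was 1 of these, at 133, 233 and 112.

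A somewhat smaller share of members than of other IDR peaks was among the strongest binding sites. At the centre the groups lay close, with a median rank of 3974 for members and 3862 for other IDR peaks. The strongest 1942 peaks of the IDR list (25%) held 273 members, 21.6% of them (95% Wilson interval 19.5% to 24.0%), and 25.6% of the other IDR peaks, a difference of −3.996 points (Newcombe 95% interval −6.43 to −1.42). Within the single replicates the difference was −2.39, −5.30 and −0.407 points (−2.70 ± 2.46, SD, n = 3), so its size varied between replicates by about as much as its mean, although the sign was the same in 3 of 3. The exact sign-flip test over the 3 replicates gave p = 0.25 (2-sided), which is the smallest value that 3 replicates allow. Among the strongest 500 peaks 52 were members, 4.12% of the members against 6.88% of the other IDR peaks, a difference of −2.76 points (−3.92 to −1.38). The interval for the strongest 1942 peaks against the 1076 deep intronic peaks, which lie in introns over 5 kb from a TSS, included 0, with a difference of 1.30 points (−2.03 to 4.59).

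Most members recurred in every library, and the interval of the difference from other IDR peaks included 0. In every replicate's top list, cut to the length of the IDR list, a peak overlapped 67.8% of the members (95% interval 65.2% to 70.3%) and 70.2% of the other IDR peaks, a difference of −2.36 points (−5.21 to 0.404). By library the share of members so overlapped was 89.9%, 88.3% and 79.9% in replicates 1, 2 and 3. In the full lists of all 3 replicates 97.7% of members were overlapped. The IDR list was chosen from these libraries, so these shares are descriptions.

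Binding was sparser in distal intergenic sequence than elsewhere, and the difference was smaller when the sequence near the centromeres was left out. The sequence that meets the rule measured 33.6 Mb, 25.1% of the 6 chromosome arms, and held 37.5 members per Mb (exact 95% Poisson interval 35.4 to 39.6), while all other sequence held 64.9 IDR peaks per Mb (63.4 to 66.5). The replicates gave 38.3, 35.4 and 36.5 per Mb in the distal intergenic sequence, each below its own value elsewhere by 26.4, 30.3 and 28.7 per Mb (exact sign-flip test, 2-sided p = 0.25, the smallest possible). The 5 Mb of each long arm nearest to the centromere made up 34.2% of the distal intergenic sequence and held 95 members, or 8.26 per Mb (6.68 to 10.1). Without these stretches and without chromosome 4, the density was 52.5 per Mb (49.5 to 55.6) against 69.6 (67.8 to 71.4) elsewhere, so the members' density was 0.754 times that of the other sequence instead of 0.577 times. Bases soft-masked as repeats or unknown covered 27.7% of the distal intergenic sequence, and 26.2% of member summits lay on such bases. Annotated transposable elements covered 11.4% of it and held 2.22% of member summits (1.54% to 3.19%), against 1.04% of other IDR summits. Whether reads could be placed uniquely in repeats was not tested.

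Members thinned out with distance from genes over all arms, and this changed when the centromere-proximal sequence was set aside. The median member lay 3941 bp from its nearest TSS (quartiles 2079 and 8013 bp, and 3886 ± 21.8 bp over the replicates, n = 3), while the median position of the distal intergenic sequence lay 6793 bp away. Density fell from 66.2 members per Mb at 1 to 2 kb to 50.2 at 2 to 5 kb, 40.0 at 5 to 10 kb, 33.6 at 10 to 20 kb and 14.3 at 20 to 50 kb. Beyond 50 kb there was 1 member in 4.302 Mb. Without the proximal 5 Mb and chromosome 4 the bins up to 50 kb held 69.3, 53.0, 45.0, 49.0 and 47.2 members per Mb. The last 3 of these have intervals that overlap (39.7 to 50.8, 41.6 to 57.3 and 35.1 to 62.3). Beyond 50 kb this sequence still held few, with 1 member in 0.229 Mb, or 4.37 per Mb (0.111 to 24.4). The step from the 1 to 2 kb bin to the 2 to 5 kb bin was present both ways and in each replicate, at 70.3 ± 1.53 against 51.8 ± 1.72 per Mb without the proximal sequence (SD, n = 3).

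**Figure D2:**
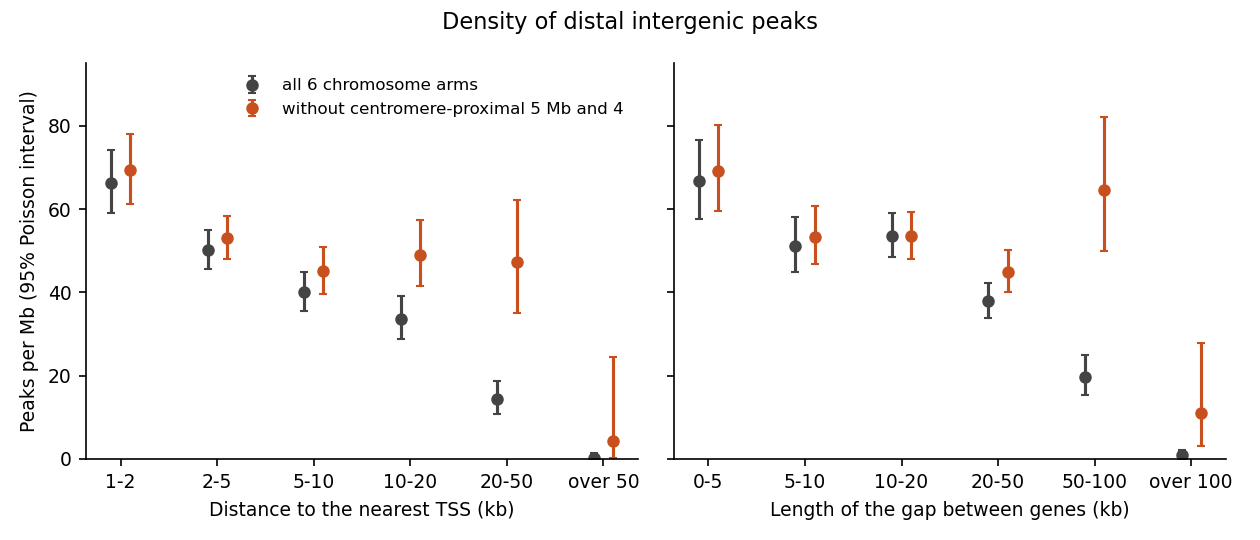
Members per Mb of distal intergenic sequence (y, exact 95% Poisson intervals) by distance to the nearest TSS (left, kb) and by length of the gap between genes (right, kb), over all 6 arms (grey) and without the centromere-proximal 5 Mb and chromosome 4 (orange). The grey points fall steadily to 14.3 per Mb at 20 to 50 kb from a TSS, where the orange point stands at 47.2. Beyond 50 kb from a TSS they stand at 0.232 and 4.37.

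Gene deserts, defined as gaps of at least 50 kb between neighbouring genes, fell into distinct kinds. The 78 deserts made up 28.1% of the distal intergenic sequence and held 76 members, or 6.03% of them (5.98%, 5.63% and 6.02% in replicates 1, 2 and 3). The members' share minus that of the sequence was −22.05 points, and below 0 in 3 of 3 replicates (exact sign-flip test, 2-sided p = 0.25, the smallest possible). Without the proximal 5 Mb and chromosome 4, deserts held 6.09% of the members and 6.34% of the sequence. Of all 78 deserts, 60 were centred in a proximal 5 Mb or on chromosome 4, and 5 of the 60 held 6 members in 8.05 Mb, or 0.745 per Mb (0.273 to 1.62). The other 18 deserts held 70 members in 1.39 Mb, with members in 13 of the 18, or 50.4 per Mb (39.3 to 63.7). That density was near the 49.0 per Mb (46.2 to 51.9) of all shorter gaps, which include those of the proximal sequence and chromosome 4. It joins unlike lengths. Gaps of 50 to 100 kb outside the proximal 5 Mb and chromosome 4 held 64.6 per Mb (49.96 to 82.2). Those over 100 kb held 10.9 per Mb (2.97 to 27.9), with 4 members in 0.367 Mb. This value rests on only the gap between Pld and lncRNA:CR46075 and the 122.5 kb at the start of X. The first held all 4 members and is 46.9% soft-masked, and the second held 0. Of the 10 longest gaps in the genome, all over 200 kb, only that between Pld and lncRNA:CR46075 held a member, with 4 members in 245.8 kb. The longest, 710.7 kb on 3L between CG42598 and CG40228, held 0 IDR peaks and 1 peak of the pooled list.

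**Figure D3:**
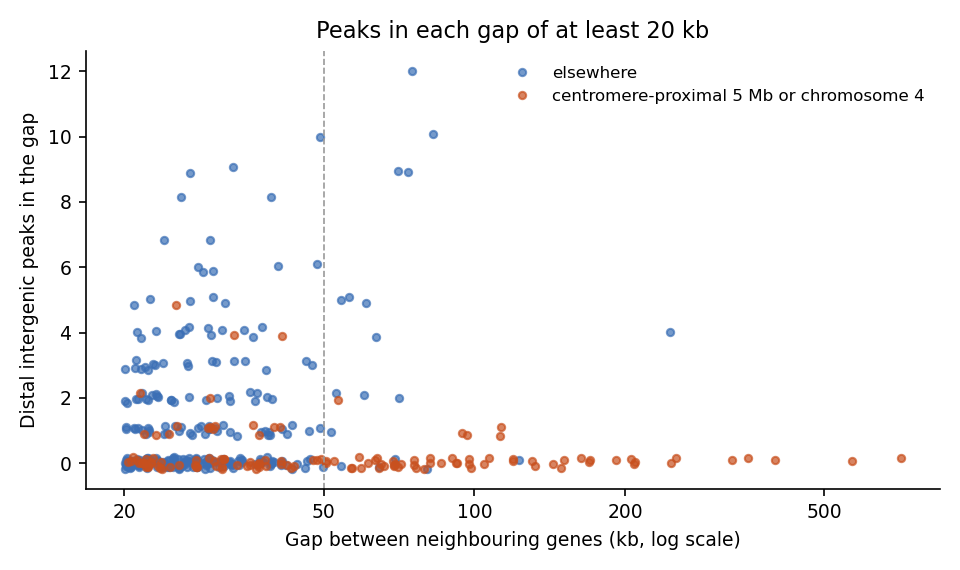
Number of distal intergenic peaks (y, jittered vertically by under 0.2) in each gap of at least 20 kb between neighbouring genes (x, kb, log scale), with gaps centred in a centromere-proximal 5 Mb or on chromosome 4 in orange and the dashed line at 50 kb. Nearly all gaps over 100 kb are orange and hold 0 peaks, while the fullest gaps, with up to 12 peaks, lie between 15.8 and 82.6 kb and are blue where shown.

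Of the 10 gaps with most members, 4 were deserts of over 50 kb and 7 of the 10 held 8 or 9 members. The gap between NijA, a ninjurin gene, and CG43245 held 12 members in 75.05 kb of 3L (chr3L:10696878-10771924), with 11, 12 and 12 in replicates 1, 2 and 3. A gap of 82.6 kb on 3R between AOX4, an aldehyde oxidase gene, and CG43335 held 10, and a gap of 49.1 kb on 3L between lncRNA:CR46197 and CG6244 also held 10. The gap of 73.5 kb on 3L between lncRNA:CR46353 and rpr, the cell death activator reaper, held 9 (9, 9 and 11 in the replicates). Counting both of its sides, rpr bordered 15 members, the most of any gene. The gap of 70.5 kb beside vvl, a POU-domain transcription factor gene of the trachea and nervous system, also held 9 (8, 9 and 7). The densest of the 10 fullest gaps was that of 15.8 kb between Dyro and CG7573 on 3L, with 8 members or 5.79 per 10 kb.

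The 10 longest gaps that held a member mixed both kinds of desert. Those of AOX4, NijA, rpr and vvl held 9 to 12 members each. The gaps between CG10651 and lncRNA:CR40341, CG17684 and CR40100, CR43170 and RpL15, and CG41128 and CG41099, from 94.4 to 113.1 kb, held 1 each. The last 2 of these members were weak, at ranks 6593 and 6520. By contrast the lone member beside lncRNA:CR40341 ranked 443, with replicate ranks 406, 614 and 345 (chr2L:20204602-20205053), 43216 bp from the nearest TSS. The member farthest from any TSS lay 96500 bp from that of Pld, which encodes phospholipase D, and ranked 1400 (1266, 1928 and 1039 in the replicates). The lone members beside lncRNA:CR40341 and CG17684 and the one farthest from a TSS were thus found in the top list of every replicate.

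Members lay both singly and in groups. Most gaps held none: of 4793 gaps with distal intergenic sequence, 666 held a member, 397 of them 1 member, and 69 of them 3 members. Another member lay within 5 kb of 687 members (54.5%, 51.7% to 57.2%) and within 1 kb of 263 (20.9%). When members up to 5 kb apart were joined, 574 members stayed single, 215 groups of 2 to 4 held 524 and 27 groups of 5 or more held 163. What spacing this density would give by itself was not tested. Groups could run across genes, so the 2 genes named for a group flank it and need not be neighbours. The fullest group held 11 members over 23.0 kb between lncRNA:CR44363 and CG6149 on 3L, although 0 single gaps held 11. The next group held 10 over 14.5 kb between lncRNA:CR45632 and the gustatory receptor gene Gr93b on 3R. A group of 8 over 15.6 kb between Ids and sty, which encodes the receptor tyrosine kinase inhibitor Sprouty, included the member ranked 116. A group of 6 over 9.12 kb lay beside exex, a homeobox gene of motor neurons. Summits of 46 members share an interval with another summit, and keeping 1 summit per interval left the density at 36.8 per Mb.

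Chromosome arm 3L held more members than any other long arm. It carried 444 members, 35.2% of all, on 25.2% of the distal intergenic sequence. Its density was 52.5 per Mb (47.7 to 57.6; replicates 51.6, 48.9 and 49.97), against 42.0 on 2L, 37.2 on 3R, 28.6 on X and 20.8 on 2R. The replicate values of 3L lay above those of the other 4 long arms without overlap. Without the proximal 5 Mb, 3L stood at 82.9 per Mb (75.3 to 91.0; replicates 79.3 ± 1.98), against 50.1 on 2L, 44.2 on 3R, 38.7 on X and 35.4 on 2R. On 3L this stood above the density of the other IDR peaks of the arm, 74.1 per Mb (70.2 to 78.3), with intervals that overlap. On each of the other 4 long arms the members were sparser than the other peaks (66.4 to 72.2 per Mb).

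The excess on 3L was also present in the authors' larger pooled list, which holds 30000 peaks. IDR peaks were not taken out of this list, so it is no separate measure of weaker peaks. In it 3L carried 345.5 distal intergenic peaks per Mb outside the proximal 5 Mb (329.9 to 361.7), against 188.1 to 232.2 on the other long arms. The 12 windows of 1 Mb with at least 23 members each, the last 3 of them tied at 23, held 32.9% of members on 10.4% of the distal intergenic sequence, and 7 of the 12 were on 3L. The window from 11 to 12 Mb of 3L held 51 members (49, 51 and 47 in the replicates), or 226.4 per Mb. Those from 18 to 19 Mb and from 15 to 16 Mb held 49 and 47. Chromosome 4 held 16 members in 0.217 Mb, or 73.6 per Mb, with a wide interval (42.1 to 119.5) and replicate values of 82.8, 69.0 and 101.2.

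**Figure D4:**
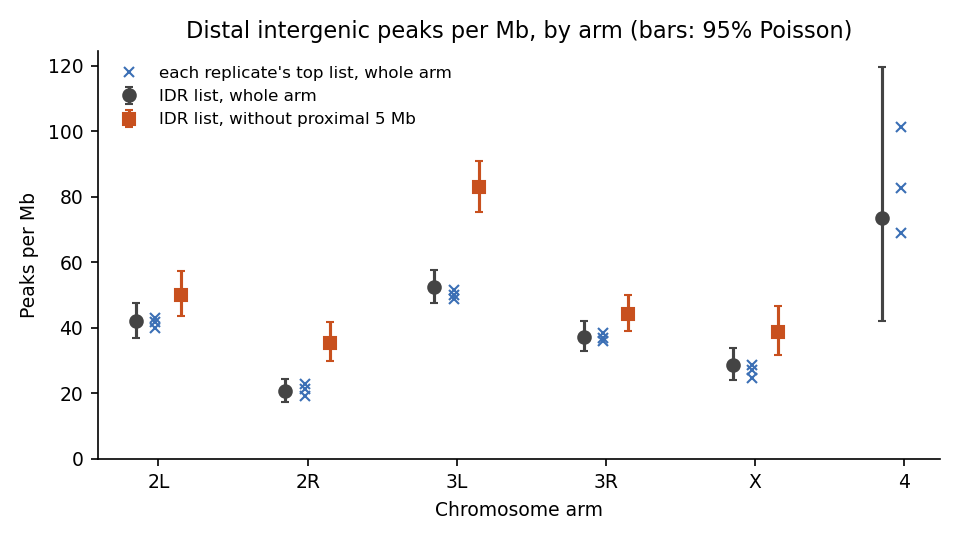
Members per Mb of distal intergenic sequence (y) by chromosome arm (x): IDR list with exact 95% Poisson intervals over whole arms (grey circles) and without the centromere-proximal 5 Mb (orange squares), and each replicate's strongest peaks, as many as in the IDR list, over whole arms (blue crosses). 3L stands highest of the long arms both ways, at 52.5 and 82.9 per Mb.

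Density differed with the orientation of the genes on both sides of the gap. Gaps between divergent genes, whose starts face the gap from both sides, held 50.7 members per Mb (45.4 to 56.5), tandem gaps 36.6 (33.7 to 39.6) and convergent gaps 35.4 (31.6 to 39.5). The replicates gave 50.4, 49.6 and 48.7 per Mb for divergent gaps, above all 3 values for tandem (34.1 to 37.8) and for convergent gaps (32.8 to 36.2). The distance to a TSS and the share of centromere-proximal sequence were not held equal between these classes. With respect to the nearest gene alone, 588 members (46.6%, 43.9% to 49.4%) lay on its 5′ side, where 45.5% of the distal intergenic sequence lies. The replicates exceeded that share by 0.814, 1.82 and 1.37 points (exact sign-flip test, 2-sided p = 0.25, the smallest possible), a small difference that lies within the interval of the IDR value. The nearest TSS belonged to a gene that borders the gap for 1213 members (96.2%).

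A member next door was not clearly tied to binding at the bordering promoter itself. Of 837 protein-coding genes that border a gap with a member, 127 (15.2%) had an IDR summit within 250 bp of a TSS, against 698 of 4995 (14.0%) that border distal intergenic sequence without one. The difference was 1.20 points (Newcombe 95% interval −1.28 to 3.95). Neighbouring genes share gaps, so this interval treats linked genes as independent.

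Gaps beside developmental regulators held more members per Mb than the average gap. Over all genes, 1213 of the 7258 that border distal intergenic sequence (16.7%) bordered a member, with a median of 0 members per gene and 37.5 members per Mb. In 4 of the 5 lists of developmental genes, joined into 1, 100 of 171 did (58.5%), with a median of 1 and 237 members in 2.66 Mb, or 89.1 per Mb (78.1 to 101.1). The replicates gave 93.2, 80.8 and 81.9 per Mb for the 4 lists. The fifth, the Hox genes, was not joined: none of the 7 that border distal intergenic sequence bordered a member, but they border only 0.0467 Mb of it, and 0 members there allow a density of up to 78.9 per Mb. Outside the proximal 5 Mb and chromosome 4 the values were 89.4 per Mb for the 4 lists and 52.5 for all genes. The gaps beside these genes also held more distal intergenic sequence, 6.07 kb per gap in the median against 1.90 kb, which raises the count per gene. Density itself differed with gap length. Outside the proximal 5 Mb and chromosome 4 it was 69.3 per Mb in gaps under 5 kb, 44.9 at 20 to 50 kb and 64.6 at 50 to 100 kb. Gap length was not held equal between the lists and all genes. The lists were assembled with earlier results of these data known and share gaps, so the values are descriptions.

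Among segmentation genes, which divide the embryo into segments, 19 of 26 bordered a member, at 89.5 members per Mb (67.8 to 116.0). Their fullest neighbourhoods were those of croc, a forkhead-domain gene of the head, with 9 members (8, 7 and 8 in replicates 1, 2 and 3), oc (orthodenticle, a head homeobox gene) with 7 (11, 6 and 6), ems (empty spiracles, another head homeobox gene) with 6 (7, 7 and 4), and wg (wingless, a Wnt ligand) with 5 (5, 5 and 3). Of these, oc had the strongest member, at rank 294. The best member of croc ranked 1416 and that of ems 2627, so the count and the strength did not go together here.

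Homeobox and forkhead genes outside the segmentation and Hox lists held 101.7 per Mb (81.1 to 125.9), and 34 of 57 bordered a member. They were led by vvl with 9, B-H2 (a homeobox gene of the eye and sense organs) with 7, Dr (a homeobox gene of muscle and nervous system) with 6 and exex with 6. Other developmental transcription factor genes held 76.4 per Mb (58.0 to 98.7), and 30 of 55 bordered a member. They were led by Doc2, a T-box gene of the heart and amnioserosa, with 7 members in 18.2 kb (7, 8 and 7 in the replicates), the Sox gene D (Dichaete) with 6, the T-box gene mid with 4 and chinmo, a BTB-domain gene of neuronal timing, with 3 in 2.09 kb.

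Signalling ligands and receptors held 93.5 per Mb (68.5 to 124.7), and 19 of 36 bordered a member. The receptor gene 18w bordered 5 (5, 6 and 6 in the replicates), and ptc, the Hedgehog receptor patched, bordered 4 (5, 5 and 5). The Wnt ligand genes wg and Wnt4 bordered 5 each, with the same best member at rank 1549. Members in a gap shared by neighbouring genes are counted for both.

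Gaps beside neural effector genes held fewer members per Mb than the average gap. Neuronal recognition and adhesion genes held 17.1 members per Mb (10.3 to 26.6), with 17.9, 15.2 and 17.1 in the replicates. Of these genes 11 of 72 bordered a member (15.3%, 8.75% to 25.3%). They were led by the axon guidance receptor gene robo2, the leucine-rich repeat gene trn and the immunoglobulin-family gene klg with 3 each and robo3 with 2. Ion channel and neurotransmitter receptor genes held 15.6 per Mb (5.74 to 34.0), with KCNQ, a potassium channel gene, bordering 2. Of these genes 5 of 36 bordered a member (13.9%, 6.08% to 28.7%). Both intervals include the 16.7% of all genes, so the share of genes that border a member was not clearly lower. Outside the proximal sequence the densities of these lists were 17.4 and 13.8 per Mb, against 52.5 for all genes.

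Gaps beside noncoding genes differed by class. Genes with lncRNA or asRNA symbols, which encode long noncoding and antisense RNAs, bordered 666 members at 49.9 per Mb (46.2 to 53.9), against 36.9 for protein-coding genes. A gap can border both kinds. Gaps beside tRNA genes held 71.7 per Mb (49.9 to 99.7), and those beside pseudogenes 5.43 (2.97 to 9.11). Outside the proximal sequence lncRNA and asRNA genes stood at 59.1 per Mb (54.5 to 64.0) and protein-coding genes at 51.9 (48.8 to 55.2), with intervals that overlap. The tRNA genes stood at 71.7 (49.9 to 99.7), an interval that includes the 52.5 of all genes. Of their 35 members, 9 lay in 1 gap, between tRNA:Ile-TAT-1-2 and CG13898. Pseudogenes stood at 11.1 (2.30 to 32.55), from 3 members only.

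Member summits were rich in A and T and their flanks were not. The windows at the summit, 50 bp to either side, held 69.1% A or T, and those centred 200 bp away on both sides 56.2%, a rise of 12.97 points (11.8, 13.3 and 9.84 in replicates 1, 2 and 3). The flanks lay below the 59.1% of the distal intergenic sequence as a whole, and the profile was lowest 250 bp from the summit, at 54.9% to the right, and returned to 59.1% and 59.3% at 1000 bp on the left and right. The rise was larger in members than in other IDR peaks, where it was 9.21 points. The difference between the 2 rises was 3.19, 3.65 and 2.76 points in the replicates (3.20 ± 0.443, SD, n = 3), higher in 3 of 3 (exact sign-flip test, 2-sided p = 0.25, the smallest possible). Deep intronic peaks rose by 11.8 points and peaks within 250 bp of a TSS by 6.99. When the members were split by signal into 4 equal groups, the strongest group rose by 14.3 points and the weakest by 10.9.

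**Figure D5:**
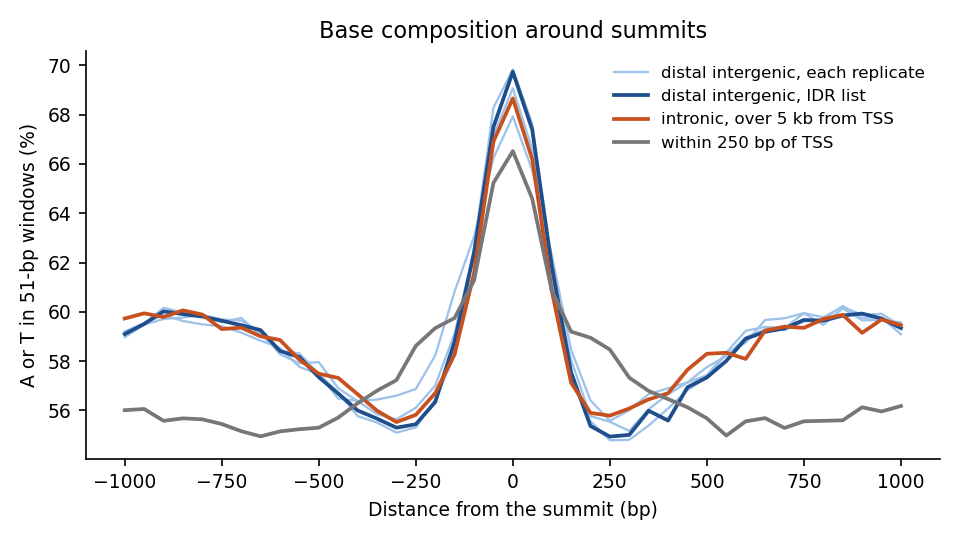
Percentage of A or T in windows of 51 bp (y) by distance from the summit (x, bp) for the distal intergenic peaks of the IDR list (dark blue) and of each replicate (light blue), intronic peaks over 5 kb from a TSS (orange) and peaks within 250 bp of a TSS (grey). The distal intergenic profile peaks at 69.7% at the summit and dips to 54.9% at 250 bp, close to the deep intronic profile, while the profile of peaks near a TSS is lowest farther out, at 54.95% at 650 bp to the left.

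The 8-mers called above held few C or G. Of the 208, 98 held A and T alone and 97 held 1 C or G. All 208 were also more frequent at summits than in flanks in each of the 3 replicate lists. The IDR list on which they were called comes from these same libraries, so this agreement is a description and not a separate test. The leading 8-mer, TATTTAAA, occurred in 7.14% of member summits and 1.67% of flanks (adjusted p = 4.47e-07, exact paired test), and in 6.68%, 6.64% and 5.86% of summits in the replicates. It is present in 2.24% of windows of the same length tiled over the distal intergenic sequence. TTAAATAA, AAATATAA and ATATTTAA followed, and these overlap one another and TATTTAAA in part. At least 1 of the 208 was present at 90.7% of member summits, in 52.9% of flanks and in 62.9% of tiles. The 8-mers were called on the same summits, so this share is a description.

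Among 8-mers with a C or G, AATACTAA was at 25 member summits and in 0 of the flanks tested (adjusted p = 6.33e-05, exact paired test), and ATTCTTAA at 27 and 1 (adjusted p = 1.85e-04, exact paired test). In the replicates AATACTAA was at 1.71%, 2.10% and 1.55% of summits and in 0.389%, 0.420% and 0.732% of flanks, so the absence from flanks did not recur. The test called 31 8-mers lower at summits, led by CAACAACA, at 0.317% of summits and 3.33% of flanks, and AACAACAA, with CACACACA, CCACCCAC and AGCAGCAG among the next. Of the 208, 197 (94.7%) were also called in the other IDR peaks, and these are 13.6% of the 1448 called there. The number called depended on the members kept. It was 105, 74 and 160 without replicates 1, 2 and 3, for members overlapped in the top lists of both other replicates. These sets leave fewer windows to test.

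Short sites of known factors were counted in the same windows, on both strands. Such counts move with A and T content, and the part of composition in them was not tested. The homeodomain core TAAT was at 83.4% of member summits, 57.2% of flanks and 64.3% of tiles, and the longer TAATTA, which contains it, at 13.6%, 6.50% and 7.33%. TATAAA, the core of the TATA box, was at 26.8%, 11.3% and 12.3%, and at 26.1% of summits within 250 bp of a TSS. The GATA-factor site AGATAA was at 7.93%, 4.996% and 5.73%. At deep intronic summits these 4 sites stood, in the same order, at 78.8%, 11.7%, 25.9% and 9.76%, so such shares are not particular to members. The next 4 sites were scarcer at summits than in flanks: the GAGA-factor repeat GAGAG at 7.22% against 13.3% (tiles 11.1%), the E-box CANNTG at 31.3% against 39.7% (tiles 37.8%), CACGTG, 1 form of it, at 0.0793% against 1.15% (tiles 1.08%), and GCCAT, the core bound by Pho, at 12.9% against 19.6% (tiles 19.9%). Each of these differences had the same sign in 3 of 3 replicate lists. CAGGTAG, bound by the early activator Zelda, was at 0.476% of member summits, 0.555% of flanks and 0.429% of tiles.

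The promoter-associated sites TATCGATA, bound by DREF, and GGTCACAC, of the M1BP type, were at 0.397% and 0.238% of member summits and in 0.119% and 0.0793% of flanks, higher at summits in 3 of 3 replicate lists. These are 5 and 3 member summits. They were at 1.73% and 1.54% of summits within 250 bp of a TSS. In tiles of the distal intergenic sequence they stood at 0.209% and 0.127%.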

How the data were processed

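ChIP-seq peak lists of 3 libraries were used. The authors deposited 5 lists in dm6 coordinates: 1 per library, 1 called on all 3, and the IDR list. Per the labels and record files, 1 control file was shared; the aligner, peak caller, IDR threshold and read depth were not given in those sources. Peaks were ranked within a list by the signal value as deposited. The deposited −log10 q-value was not used, and the deposited summit offset placed summits. It pointed outside the interval for 2 members, which were kept.

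Gene models were those of Ensembl release 115 (18164 genes, 23581 TSSs). Distal intergenic sequence is every base that meets the membership rule. Replicate values come from the strongest peaks of each replicate list, as many as the IDR list holds. Shares carry Wilson, densities exact Poisson and differences of shares Newcombe 95% intervals, which cover the counting of peaks only. The 5 differences between paired replicate values were tested by exact sign flips, each with p and Benjamini-Hochberg adjusted p of 0.25. Overlap meant 1 shared bp.

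Each 8-mer, joined with its reverse complement, was tested by an exact 2-sided McNemar test of summit windows (50 bp to either side) against 1 flank 200 bp away, at adjusted p under 0.05, and the script was tested on simulated data. Named were the 15 strongest members, the 10 farthest from a TSS, the 10 longest and 10 fullest gaps, up to 4 genes per list with most members, and the leading 8-mers; only some of these are described. Other genes, windows, groups and 8-mers were named after their values were seen. Members, motifs and the 7 gene lists were chosen with earlier results of these data known. Python 3.11.15, NumPy 2.4.6, pandas 2.3.3, SciPy 1.17.1 and Matplotlib 3.10.9 were used.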

Additional observations from a re-analysis of the deposited data

How the results depend on the processing

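No paired analysis was possible because there was 1 group only, so no replicate block between groups; the sign-flip and McNemar tests pair values within that group. Of 107 alternative values, 56 stayed within the replicate spread (counts: within 1.5 times) and 51 moved; the causes were not tested except where given. RefSeq models changed no value, but differ from the Ensembl models in only 56 bp of the distal intergenic sequence. Leaving out the proximal 5 Mb with chromosome 4, or repeats, was chosen after seeing the data. The members' density stayed below that of other sequence in all alternatives (0.506 to 0.754 times).

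A replicate was left out by keeping only IDR peaks overlapped in the top lists of both other replicates. The IDR list itself was not remade, so the left-out library still shaped it. This gave shares of 15.6% to 16.2%, densities of 26.5 to 30.1 per Mb (fewer peaks) and medians of 3863 to 3968 bp. Desert shares were 5.92% to 6.43%, 5′ shares 45.5% to 47.1% and shares among the strongest 25% of peaks 19.9% to 21.1%. The top-list share of all members, counted over the other replicates only, was 70.6% to 80.3%. A/T rises were 12.4 to 13.5 points, and 74 to 160 8-mers were called.

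The share of IDR peaks was 19.6% in the pooled list, 19.3% and 12.3% with limits of 500 and 2000 bp, and 20.4% with protein-coding genes only. The density was 25.4 per Mb for peaks in every replicate, 18.2 for the stronger 50% of the list, 174.3 pooled, 41.1 and 32.9 with the other limits, 41.9 with coding genes, 52.5 without proximal sequence and 51.9 without repeats. The median distance was, in the same order, 3896, 3874, 4120, 3135, 5452 and 5631 bp. The desert share was 6.37% for the stronger 50% (sequence 28.1%), 5.27% and 7.42% with the other limits (sequence 26.0% and 32.1%), 13.7% with coding genes (35.3%), and 32.6% and 0.476% for deserts of 20 and 100 kb (54.3% and 17.5%). The 5′ share was 49.2% and 44.0% with the other limits (sequence 47.1% and 43.8%) and 50.98% with coding genes (48.9%). The strongest 25% held 16.7% of members within the stronger 50%, against 26.6% of other peaks. The top-list share was 96.7% in the stronger 50%, 18.4% pooled and 60.2% with summits within 100 bp; among peaks in every replicate it is fixed, so has no value. The A/T rise was 6.21 points pooled and 10.2 with 100 bp to either side of the summit. The 8-mers called were 84 for peaks in every replicate, 59 for the stronger 50%, 375 pooled and 335 with coding genes. Read depth is unknown and limits which weak sites could be seen.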
